A study of Rattus norvegicus with 12 samples.

Results

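The 45 mitosis and G2/M genes described here are the cyclins, kinases, kinesin motors and chromosome proteins that a cell uses from the end of DNA synthesis to its division. They were chosen by gene symbol, with earlier results of these data known. Of the 45, 44 had a record among the 22442 gene records of the expression table. No record of the name Ccnb2 was found in the table used here. Cenpa and Ndc80 each had a second, lower record, and the record of higher mean was taken. All 44 passed the filter of a mean of at least 1 FPKM (fragments per kilobase of transcript, scaled to the mapped fragments of the library) and were tested among 11611 records. FPKM is a level per transcript length.

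The cells were fibroblast-like synoviocytes (FLS), the matrix-producing lining cells of the joint, grown from synovial tissue of Sprague Dawley rats with adjuvant arthritis (AA), a joint inflammation raised by complete Freund's adjuvant. All 4 groups were FLS of such AA rats of the same passage number, so the design holds no cells of healthy joints. The FCA group was kept in DMEM alone. The AT01, AT1 and AT10 groups received taurochenodeoxycholic acid (TCDCA), a taurine-conjugated bile acid, at 0.1, 1 and 10 µM for 12 h, with 3 poly(A) RNA libraries in each group. In the study, the replicate number of a library stands for a set of repeated studies. Whether these were separate cultures or animals, or whether a number pairs libraries across the groups, is not said. The p-values therefore measure the spread between these libraries, which may be technical. The age of the rats is not given either, and no cell counts or cell cycle phases accompany the FPKM values. In such bulk samples, fewer dividing cells and less of an mRNA in each dividing cell cannot be told apart.

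The libraries summed to between 284210 and 309696 FPKM. The study lists the reads and GC content of each library, but the reads behind a single FPKM value are unknown. Reads were most in AT01 replicate 3, and GC content was highest in AT01 replicate 1, followed by FCA replicate 2. The part of depth and GC content in the results below was not tested. Fibroblast markers summed to between 5654 and 7134 FPKM and synovial fibroblast markers to between 698 and 862 FPKM. Of the 11 macrophage markers 6 had a record, with a sum of 1.92 to 3.39 FPKM, and Adgre1, Mrc1 and Aif1 averaged at most 0.1 FPKM. Cd68 made up most of that sum, with a mean of 2.13 FPKM (1.66 to 2.91), and Lyz2 reached up to 1.0 FPKM. The 5 lymphocyte markers with a record summed to at most 0.08 FPKM and the 5 endothelial markers to at most 0.21 FPKM. The 5 chondrocyte markers summed to 4.73 to 10.13 FPKM. The 4 adipocyte markers summed to 26.9 to 43.0 FPKM, most of it Fabp4 (mean 33.1 FPKM). The sum of the 4 smooth muscle and myofibroblast markers differed between the groups, at 307 to 410 FPKM in FCA, 223 to 288 in AT01, 252 to 290 in AT1 and 159 to 303 in AT10. Its part in the results below was not tested.

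Entry into mitosis is driven by CDK1 bound to cyclin A or cyclin B. Aurora and Polo-like kinases then build the spindle, kinesins move chromosomes along it, the spindle checkpoint holds cells until every kinetochore is attached, and the anaphase-promoting complex with CDC20 releases them. The genes of these proteins are transcribed late in the cell cycle, under the control of the DREAM, B-MYB and FOXM1 complexes. Known elements of their promoters are the CCAAT box and the cell cycle genes homology region (CHR). In inflamed joints, growth of FLS is one of the features of pannus.

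Promoter windows of 300 bases, from 250 before to 50 after the annotated gene start, were available from RefSeq (GRCr8) for 38 of the 44 genes, as 39 windows. The CCAAT box (CCAAT on either strand) stood in 28 of the 39 windows (71.8%), against 37.5% of all 33469 windows of the table. The CHR (TTTGAA or TTCGAA on either strand) stood in 26 windows (66.7%), against 19.7% of all windows, and both stood in 21 windows (53.8%), against 7.95%. The first base of a CCAAT match had a median position of -98 and that of a CHR match of -46, counted from the gene start. A match is a string of letters and not a shown binding site. The windows of 6 genes are printed 5′ to 3′ on the strand of the gene, with CCAAT and CHR matches in capitals. Hmmr, Mki67 and Cenpf had the smallest p-values of TCDCA against FCA, Smc4 had the largest fold change at 10 µM, Cdc20 had the lowest fold change, and Kif18b, whose levels ran most against those of Mki67, held neither motif.
Hmmr (chr10:25665166-25665465, minus strand): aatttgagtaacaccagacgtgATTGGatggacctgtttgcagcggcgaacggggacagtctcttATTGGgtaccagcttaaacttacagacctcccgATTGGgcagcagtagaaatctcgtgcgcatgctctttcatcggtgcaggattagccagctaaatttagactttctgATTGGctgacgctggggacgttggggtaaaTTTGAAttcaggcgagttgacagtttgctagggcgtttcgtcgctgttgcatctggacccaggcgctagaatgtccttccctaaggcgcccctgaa
Mki67 (chr1:199952544-199952843, minus strand): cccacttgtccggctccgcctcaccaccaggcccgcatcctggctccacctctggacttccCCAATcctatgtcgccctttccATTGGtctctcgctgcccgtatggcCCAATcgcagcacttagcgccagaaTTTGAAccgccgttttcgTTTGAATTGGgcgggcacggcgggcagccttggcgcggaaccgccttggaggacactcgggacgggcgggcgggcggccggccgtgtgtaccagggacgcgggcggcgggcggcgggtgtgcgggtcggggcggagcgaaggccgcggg
Cenpf (chr13:103760837-103761136, minus strand): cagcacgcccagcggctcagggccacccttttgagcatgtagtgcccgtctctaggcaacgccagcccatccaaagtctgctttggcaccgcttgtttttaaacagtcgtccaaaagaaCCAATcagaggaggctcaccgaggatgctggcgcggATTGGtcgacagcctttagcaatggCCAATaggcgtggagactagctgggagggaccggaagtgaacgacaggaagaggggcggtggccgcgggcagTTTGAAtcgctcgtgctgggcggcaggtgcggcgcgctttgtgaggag
Smc4 (chr2:155550012-155550311, plus strand): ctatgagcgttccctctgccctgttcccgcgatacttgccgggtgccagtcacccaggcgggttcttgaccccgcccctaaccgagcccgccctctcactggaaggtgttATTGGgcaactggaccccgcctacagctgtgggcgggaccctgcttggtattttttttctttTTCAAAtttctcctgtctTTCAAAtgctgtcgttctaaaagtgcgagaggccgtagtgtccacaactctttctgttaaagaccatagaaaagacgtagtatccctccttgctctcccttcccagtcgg
Cdc20 (chr5:137255750-137256049, minus strand): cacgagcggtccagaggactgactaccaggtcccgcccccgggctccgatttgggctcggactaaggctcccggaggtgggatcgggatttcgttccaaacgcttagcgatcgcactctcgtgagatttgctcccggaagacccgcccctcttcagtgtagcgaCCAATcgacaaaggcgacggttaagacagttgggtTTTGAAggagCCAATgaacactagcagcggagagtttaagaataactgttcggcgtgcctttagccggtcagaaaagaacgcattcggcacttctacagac
Kif18b (chr10:88389642-88389941, minus strand): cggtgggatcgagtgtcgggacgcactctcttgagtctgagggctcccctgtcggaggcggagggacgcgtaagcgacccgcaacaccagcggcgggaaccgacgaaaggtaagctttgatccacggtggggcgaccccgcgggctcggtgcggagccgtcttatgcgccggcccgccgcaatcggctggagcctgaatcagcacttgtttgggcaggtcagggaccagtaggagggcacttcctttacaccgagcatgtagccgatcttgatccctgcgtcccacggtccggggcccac
The windows of Hmmr and Mki67 held 4 CCAAT matches each, and in Mki67 one of them overlapped a CHR match. The window of Cdc20 held 2 CCAAT matches and a CHR, so that genes with either direction of fold change carried the motifs. Of the 26 genes with a CHR, 20 were higher with TCDCA and their median log2 fold change was 0.17. Of the 12 genes without one 9 were higher, with a median of 0.10.

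The first comparison asked whether the mitosis and G2/M genes as a group differed between the 9 TCDCA libraries and the 3 FCA libraries. With TCDCA, 33 of the 44 genes were higher (50.7% of all records were) and 11 lower, and the median log2 fold change of FPKM + 1 was 0.10, against 0.003 over all 11611 records tested. These log2 fold changes ran from -0.26 (Cdc20) to 0.61 (Cenpf), a ratio of 1.53 in FPKM + 1. The added 1 lowers the fold changes of genes of low level, and with 0.1 added instead that of Cenpf was 0.86. At an unadjusted p under 0.05 (limma), 16 genes were higher and none was lower, which is 36.4% of the 44, against 5.86% of all records called higher and 6.15% called lower. With Benjamini-Hochberg adjustment over all records no gene of the 44 had an adjusted p under 0.05, against 0.0258% of all records, and the lowest adjusted p was 0.205 (Hmmr). No difference of a single gene among the 44 can therefore be called, and values are given as levels.

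**Figure D1:**
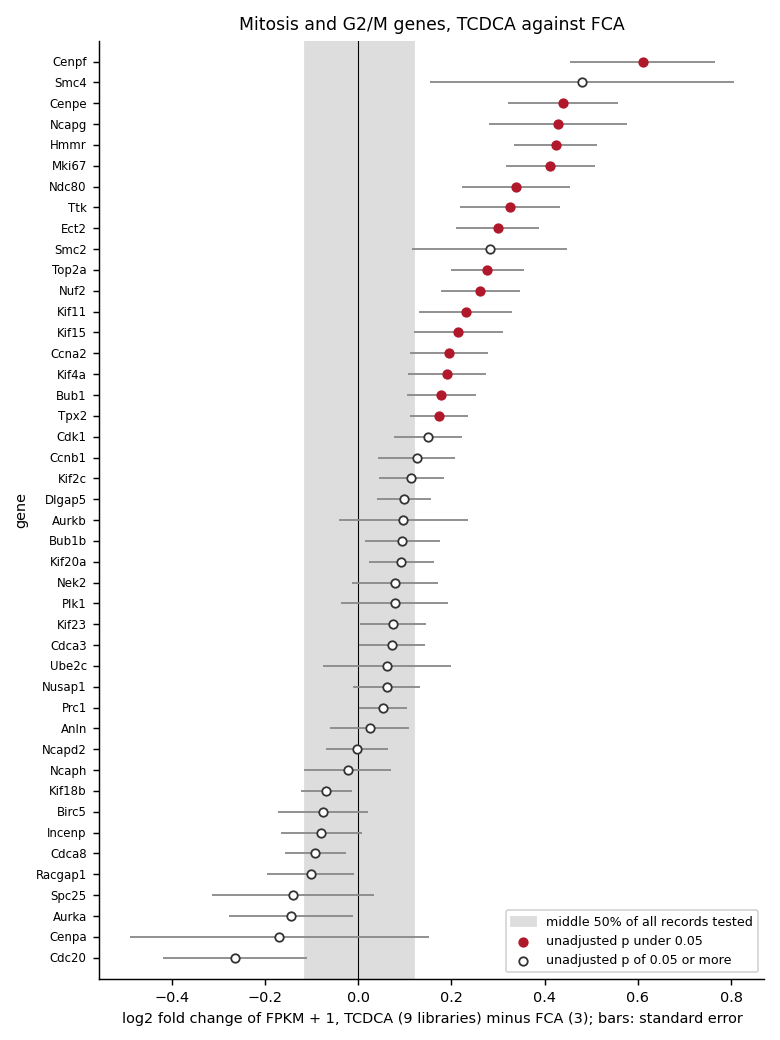
Log2 fold change of FPKM + 1 for each of the 44 genes, 9 TCDCA libraries minus 3 FCA libraries, with the standard error as bars. Filled points have an unadjusted p under 0.05, and the grey band spans the middle 50% of all 11611 records. All 16 filled points lie on the higher side, and Cdc20 is lowest at -0.26.

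The spindle assembly factors included the gene with the clearest separation. Hmmr, which encodes the hyaluronan-mediated motility receptor that acts at the mitotic spindle, measured 6.62, 6.94 and 7.31 FPKM in the FCA libraries, 7.81, 9.32 and 10.98 at 0.1 µM, 9.52, 9.27 and 10.44 at 1 µM and 9.01, 11.31 and 9.78 at 10 µM. All 9 TCDCA libraries were above every FCA library, the only gene of the 44 for which this held, against 0.956% of all records. The means were 9.72 ± 1.07 FPKM (SD, n = 9) and 6.96 ± 0.345 FPKM (SD, n = 3), a log2 fold change of 0.42 (SE 0.09) with an adjusted p of 0.205 by limma. Its two-sided exact permutation p of 0.00455 is the smallest that 9 against 3 libraries allow. The other 4 members of this group, Tpx2, Dlgap5, Nusap1 and Prc1, were also higher, with log2 fold changes from 0.05 (Prc1) to 0.17 (Tpx2, which activates Aurora A).

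Chromosome structure genes had a median log2 fold change of 0.28, with 5 of 7 higher. Mki67, which codes for the proliferation antigen Ki-67 on the surface of mitotic chromosomes, measured 6.74, 5.84 and 8.11 FPKM in the FCA libraries, 8.64, 10.13 and 7.85 at 0.1 µM, 9.77, 9.55 and 10.05 at 1 µM and 8.81, 10.5 and 9.94 at 10 µM. Of the TCDCA libraries 8 were above every FCA library, the exception being replicate 3 of AT01, which lay between FCA replicates 1 and 3. Mki67 differed by 0.41 on the log2 scale (SE 0.09, limma adjusted p = 0.241, exact permutation p = 0.00909). Top2a, the topoisomerase that untangles sister chromatids, measured 14.16, 12.24 and 14.62 FPKM in the FCA libraries, 14.05, 17.76 and 17.19 at 0.1 µM, 17.67, 17.05 and 16.84 at 1 µM and 16.05, 18.42 and 15.98 at 10 µM. Its lowest TCDCA value, in AT01 replicate 1, fell within the FCA range and the other 8 lay above it. The log2 fold change of Top2a was 0.28 (SE 0.08, limma adjusted p = 0.300).

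The condensin genes of the same group were split. Smc4, a core ATPase of both condensins, measured 6.46, 7.91 and 8.78 FPKM in the FCA libraries, 5.17, 7.66 and 17.49 at 0.1 µM, 12.04, 6.15 and 14.64 at 1 µM and 12.98, 16.44 and 14.63 at 10 µM. The FCA libraries were close together, the 3 AT10 libraries all lay above them, and AT01 and AT1 spanned from below FCA to at least the lower AT10 values. Ncapg, a condensin I subunit, measured 1.82, 1.75 and 2.42 FPKM in the FCA libraries, 1.99, 2.11 and 3.31 at 0.1 µM, 3.28, 2.89 and 3.63 at 1 µM and 3.02, 3.63 and 3.7 at 10 µM. All AT1 and AT10 libraries of Ncapg exceeded FCA, while AT01 replicates 1 and 2 lay inside the FCA range. Its log2 fold change was 0.43 (SE 0.15, limma adjusted p = 0.339). Smc2, the partner of Smc4, was higher by 0.28 with an SE of 0.17, whereas Ncapd2 and Ncaph, both condensin I subunits, were at -0.003 and -0.02.

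The centromere and kinetochore genes had the highest median, 0.30, with 4 of 6 higher, all 4 of them at an unadjusted p under 0.05. Cenpf, a large kinetochore-binding protein, measured 1.76, 1.11 and 1.84 FPKM in the FCA libraries, 1.79, 2.9 and 3.32 at 0.1 µM, 2.96, 2.13 and 3.68 at 1 µM and 2.86, 3.36 and 3.44 at 10 µM. It was one of the lowest genes of the 44 in level and had the largest fold change, 0.61 (SE 0.16, limma adjusted p = 0.268), with only AT01 replicate 1 inside the FCA range. Cenpe, the kinetochore-bound kinesin, was higher by 0.44 (SE 0.12, adjusted p = 0.295), Ndc80 by 0.34 and Nuf2 by 0.26, the last 2 being partners in the microtubule-binding NDC80 complex. Spc25, another subunit of that complex, was at -0.14 with an SE of 0.17. Cenpa, the centromeric histone H3 variant, measured 3.56, 5.37 and 6.38 FPKM in the FCA libraries, 6.23, 6.26 and 1.99 at 0.1 µM, 5.41, 2.48 and 5.71 at 1 µM and 5.55, 2.17 and 6.02 at 10 µM. It was at 1.99 to 2.48 FPKM in 1 library of each TCDCA group and at 5.41 to 6.26 FPKM in the others, so that its log2 fold change of -0.17 had an SE of 0.32. Cenpe and Cenpa are named beside the genes of the rule after their values were seen.

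**Figure D2:**
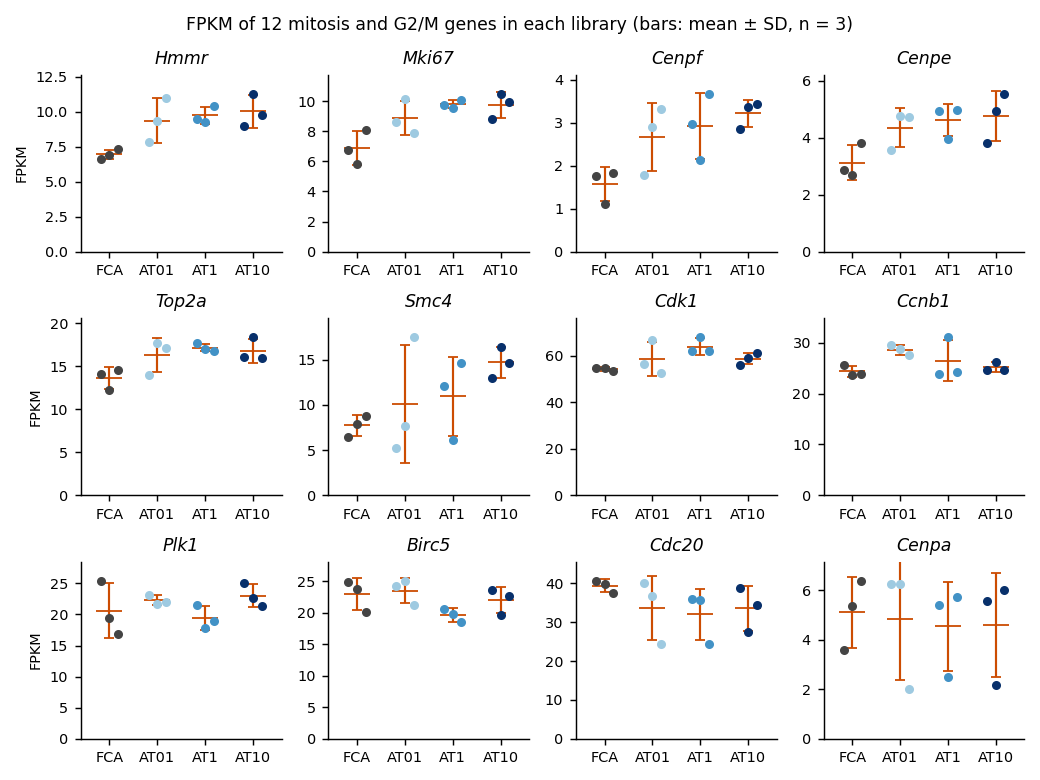
FPKM (y axis, from 0) of 12 of the genes in each of the 12 libraries, by group (x axis); points are libraries in the order of their replicate numbers and bars are the mean ± SD of 3. Hmmr does not overlap between FCA and any TCDCA group, Smc4 spreads from 5.17 to 17.49 FPKM in AT01, and Cdc20 and Cenpa each have 1 low library per TCDCA group.

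Of the 7 kinesin motors, 6 were higher, with a median of 0.11. Kif11, the motor that pushes the spindle poles apart, measured 4.84, 4.98 and 5.03 FPKM in the FCA libraries, 4.3, 5.82 and 6.02 at 0.1 µM, 6.26, 5.62 and 6.3 at 1 µM and 6.31, 7.07 and 6.49 at 10 µM. All AT1 and AT10 libraries were above FCA, and AT01 replicate 1 was below it. Kif4a, a chromokinesin, measured 4.23, 4.22 and 4.71 FPKM in the FCA libraries, 5.03, 5.49 and 6.05 at 0.1 µM, 5.48, 5.02 and 5.61 at 1 µM and 4.26, 4.55 and 4.95 at 10 µM. In Kif4a the 3 AT01 and 3 AT1 libraries lay above FCA and the AT10 libraries overlapped it. Kif15, a second spindle-pole motor and the lowest of the 44 in mean level (2.00 FPKM), measured 1.74, 1.54 and 1.74 FPKM in the FCA libraries, 1.52, 2.04 and 2.09 at 0.1 µM, 2.28, 2.08 and 2.12 at 1 µM and 1.86, 2.52 and 2.52 at 10 µM. All but AT01 replicate 1 of its TCDCA libraries exceeded FCA, and its log2 fold change was 0.21 (SE 0.10). Kif20a, needed for cytokinesis and the second highest of the 44 (mean 37.2 FPKM), measured 38.7, 34.05 and 33.38 FPKM in the FCA libraries, 40.59, 37.02 and 35.16 at 0.1 µM, 38.31, 39.37 and 36.12 at 1 µM and 42.15, 36.94 and 34.36 at 10 µM. Those values overlapped in every group and the log2 fold change was 0.09 (SE 0.07). Kif2c and Kif23 were at 0.11 and 0.07, and Kif18b, a microtubule-end depolymerase, at -0.07.

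The cyclin-CDK core was higher throughout by small amounts, 4 of 4 genes with a median of 0.14. Cdk1, the kinase of mitotic entry and the highest of the 44 (mean 58.9 FPKM), measured 54.64, 54.73 and 53.38 FPKM in the FCA libraries, 56.5, 66.8 and 52.66 at 0.1 µM, 61.93, 68 and 61.85 at 1 µM and 56.08, 59.05 and 61.16 at 10 µM. FCA was tight (54.3 ± 0.755 FPKM, SD, n = 3), all AT1 and AT10 libraries lay above it, and AT01 replicate 3 lay below it. The log2 fold change of Cdk1 was 0.15 (SE 0.07, limma adjusted p = 0.445). Ccnb1, cyclin B1, measured 25.6, 23.76 and 23.79 FPKM in the FCA libraries, 29.55, 28.81 and 27.55 at 0.1 µM, 23.97, 31.17 and 24.33 at 1 µM and 24.73, 26.31 and 24.71 at 10 µM. Its AT01 libraries were all above FCA, while AT1 and AT10 overlapped FCA, and over the 9 libraries it was at 0.13 (SE 0.08). Ccna2, cyclin A2, was at 0.19 and Cdca3, a trigger of mitotic entry, at 0.07.

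The mitotic kinases and the chromosomal passenger complex had medians of 0.08 and -0.08, with no gene at an unadjusted p under 0.05. Plk1, the Polo-like kinase, measured 25.45, 19.49 and 16.87 FPKM in the FCA libraries, 23.2, 21.69 and 22.02 at 0.1 µM, 21.52, 17.84 and 19.01 at 1 µM and 25.02, 22.7 and 21.36 at 10 µM. The FCA libraries alone held both the lowest and the highest of the 12 values, and the log2 fold change was 0.08 (SE 0.12, adjusted p = 0.807). Nek2, a centrosome kinase, was at 0.08 and Aurka, Aurora A, at -0.14. Aurkb, Aurora B, measured 3.79, 4.82 and 3.36 FPKM in the FCA libraries, 3.92, 4.99 and 6.14 at 0.1 µM, 4.02, 4.41 and 4.29 at 1 µM and 4.28, 3.06 and 4.08 at 10 µM. Birc5, which codes for survivin, measured 24.93, 23.73 and 20.07 FPKM in the FCA libraries, 24.17, 25.08 and 21.22 at 0.1 µM, 20.63, 19.73 and 18.52 at 1 µM and 23.54, 19.69 and 22.71 at 10 µM. Both overlapped between FCA and the 9 TCDCA libraries, with log2 fold changes of 0.10 (SE 0.14) for Aurkb and -0.08 (SE 0.10) for Birc5. The other 2 subunits, Incenp and Cdca8 (borealin), were at -0.08 and -0.09, so that 3 of the 4 genes of the complex were lower with TCDCA, and all 4 at 10 µM, none at an unadjusted p under 0.05.

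Among the checkpoint and anaphase genes 4 of 5 were higher, with a median of 0.09, and Cdc20 was lower. Ttk (MPS1) was higher by 0.32 (SE 0.11), Bub1 by 0.18 (SE 0.07) and Bub1b (BUBR1) by 0.09 (SE 0.08), and Ube2c, the ubiquitin-conjugating enzyme of the anaphase-promoting complex, was at 0.06 (SE 0.14). Cdc20, which activates that complex, measured 40.69, 39.93 and 37.43 FPKM in the FCA libraries, 39.94, 36.76 and 24.36 at 0.1 µM, 35.96, 35.68 and 24.47 at 1 µM and 38.82, 27.39 and 34.35 at 10 µM. Its lowest values were AT10 replicate 2, AT1 replicate 3 and AT01 replicate 3, and 7 of the 9 TCDCA libraries were below every FCA library. The difference was -0.26 on the log2 scale (SE 0.15, limma adjusted p = 0.505, exact permutation p = 0.123), and Cdc20 is named after its values were seen. Of the 3 cytokinesis genes, Ect2, the activator of RhoA at the cleavage furrow, was higher by 0.30 (SE 0.09), Anln (anillin) was at 0.02 and Racgap1, the partner of Ect2, at -0.10.

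**Figure D3:**
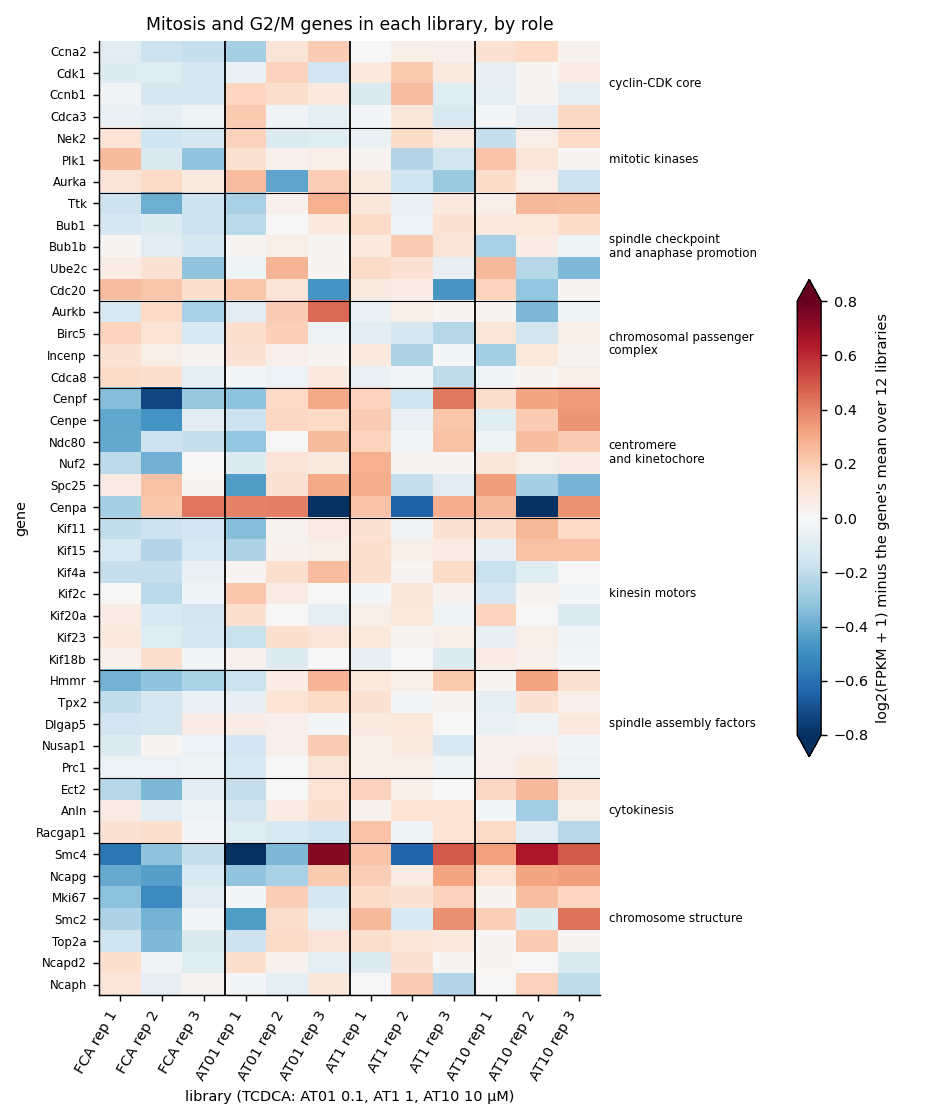
Each of the 44 genes (rows, grouped by role) in each of the 12 libraries (columns), as log2(FPKM + 1) minus the mean of that gene over the 12 libraries; red is above the mean, blue below, with colours limited at the ends of the scale. The FCA columns are mostly blue for Hmmr, Mki67, Cenpf, Cenpe and Ncapg, AT01 replicate 1 is blue for many of the same rows, and Cdc20 and Birc5 rows do not follow them.

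Each dose was then compared with FCA. The 3 comparisons share the same FCA libraries, so their values are set side by side and are not independent of one another. At 10 µM, 29 genes were higher (48.2% of all records were) and 15 lower, and the median was 0.07 on the log2 scale against -0.01 over all records. At 10 µM 14 genes (31.8%) were higher at an unadjusted p under 0.05, against 7.54% of all records, and 15 were higher without overlap between the groups, against 10.7%. At 1 µM, 34 genes were higher (53.2% of all records were) and 10 lower, with a median of 0.12 against 0.02, and 16 (36.4%) were higher at an unadjusted p under 0.05 against a background of 5.56%. At 1 µM 18 were higher and 1 lower (Cdc20) without overlap, against 9.87% and 10.0% of all records. At 0.1 µM, 35 genes were higher (50.3% of all records were) and 9 lower, with a median of 0.10 against 0.002, but only 4 were higher and 1 (Racgap1) lower at an unadjusted p under 0.05, against 2.57% and 4.03%. At 0.1 µM 5 were higher and 1 lower without overlap, against 5.97% and 8.06%. No gene passed an adjusted p under 0.05 at any dose (limma), with lowest values of 0.124 at 10 µM, 0.298 at 1 µM and 0.696 at 0.1 µM, where the backgrounds were 0.172%, 0.0947% and 0.0947%.

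**Figure D4:**
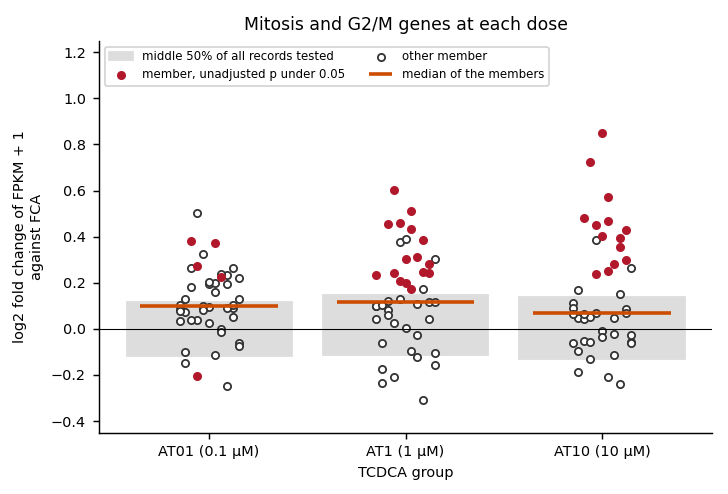
Log2 fold change of FPKM + 1 against FCA (y axis) of the 44 genes at each TCDCA dose (x axis); each point is a gene, red where the unadjusted p is under 0.05. Grey boxes span the middle 50% of all records, and the orange lines, the medians of the 44, lie at 0.10, 0.12 and 0.07.

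The genes of smallest p differed by dose. At 10 µM they were Smc4, at 14.7 ± 1.73 FPKM against 7.72 ± 1.17 (SD, n = 3 each, log2 fold change 0.85, SE 0.13, limma adjusted p = 0.124), Kif11 (0.36, SE 0.07) and Cenpf (0.73, SE 0.14). At 1 µM they were Hmmr (0.43, SE 0.07), Ncapg (0.51, SE 0.12) and Mki67 (0.46, SE 0.12). At 0.1 µM they were Ccnb1 (0.22, SE 0.07), Kif4a (0.27, SE 0.09) and Hmmr (0.37, SE 0.13). Each had an exact permutation p of 0.1, the smallest that 3 against 3 libraries allow. Over the doses, 28 genes were higher at all 3, 8 were lower at all 3 and 8 were mixed. Hmmr and Cenpe reached an unadjusted p under 0.05 at all 3 doses, 12 genes at 2 doses, 5 at 1 dose and 25 at none. The share of all records was not computed for these counts over doses. As the doses share the FCA libraries, repeated calls of a gene are not independent.

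The doses were not separated from one another. Between 10 and 1 µM no gene reached an unadjusted p under 0.05 (limma), against 6.46% of all records. Between 10 and 0.1 µM 1 gene did, Ccnb1, which was lower at 10 µM (25.3 ± 0.918 against 28.6 ± 1.01 FPKM, SD, n = 3 each), against 4.97% of all records. Between 1 and 0.1 µM 2 genes did, Birc5, lower at 1 µM by 0.25 on the log2 scale (SE 0.09), and Racgap1, higher by 0.23 (SE 0.09), against 3.43%. Racgap1, a GTPase-activating protein of the central spindle, measured 19.16, 19.31 and 17.44 FPKM in the FCA libraries, 16.39, 16.1 and 15.63 at 0.1 µM, 20.83, 17.2 and 19.06 at 1 µM and 19.67, 16.5 and 14.97 at 10 µM. Its AT01 libraries lay below all libraries of FCA and AT1. The medians of the 44 were 0.005, 0.01 and 0.02 in these 3 comparisons, and the lowest adjusted p-values were 0.748, 0.867 and 1.0, where 0.258%, 0.0689% and 0.129% of all records had an adjusted p under 0.05. With single libraries left out these counts ran from 0 to 2, from 0 to 3 and from 0 to 2. That for 10 against 0.1 µM was 0 without AT10 replicate 2, AT10 replicate 3 or AT01 replicate 2, and that for 1 against 0.1 µM was 0 without AT1 replicate 3. A test over all 4 groups gave 9 genes at an unadjusted p under 0.05, against 8.57% of all records, and none at an adjusted p under 0.05 (0.0431% of all records), with a lowest value of 0.475 (Hmmr).

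Since FCA had 3 libraries, each was left out in turn. Without FCA replicate 1, 9 of the 44 genes (20.5%) were higher at an unadjusted p under 0.05 in TCDCA against FCA and none lower, against 4.43% of all records higher, and the median was 0.15. Without FCA replicate 2, 8 genes (18.2%) were higher, against 2.96%, and the median was 0.10. Without FCA replicate 3, 13 (29.5%) were higher and 1 lower, against 6.95%, and the median was 0.10. At 1 µM the count of genes higher was 12, 7 and 17 in the same order, against 3.83%, 3.4% and 6.87% of all records. At 10 µM it was 13, 11 and 15, against 5.71%, 5.54% and 8.42%. At 0.1 µM it was 2, 0 and 5, against 1.97%, 2.02% and 3.41%. At 1 µM it was also 7 without AT1 replicate 1 and 9 without AT1 replicate 3, against 3.73% and 3.18%. At 0.1 µM the count was 11 without AT01 replicate 1 (median 0.17), 0 without AT01 replicate 2 and 1 without AT01 replicate 3, against 3.59%, 2.12% and 2.86%. Over the 4 groups, 4 genes reached an unadjusted p under 0.05 without FCA replicate 2, against 6.17% of all records. The log2 fold change of Hmmr in TCDCA against FCA stayed between 0.39 and 0.46 whichever of the 12 libraries was left out.

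By library, the mean of the 44 genes, each taken as its log2(FPKM + 1) minus its own mean, was -0.09, -0.13 and -0.09 in FCA, -0.08, 0.05 and 0.07 in AT01, 0.09, -0.007 and 0.04 in AT1, and 0.04, 0.04 and 0.06 in AT10. The 3 FCA libraries were the lowest of the 12, with AT01 replicate 1 next to them and AT1 replicate 2 near 0. In 13 genes (29.5%), at least 8 of the 9 TCDCA libraries lay above every FCA library, against 3.87% of all records. Of the 12 of these genes with 1 exception, the exception was AT01 replicate 1 in 10 and AT01 replicate 3 in 2 (Cdk1 and Mki67).

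The level of long genes moved in part with the same libraries. It was near 0 in FCA replicate 3, and its sign was opposite to that of the 44 genes in AT01 replicate 2 and AT10 replicate 1. Gene span is the genomic length from RefSeq (GRCr8), matched by symbol for all 44 genes and for 86.9% of the records tested. The mean log2 level of the longest 20% of other records by span minus that of the shortest 20% was -0.07, -0.15 and -0.01 in FCA, -0.10, -0.04 and 0.14 in AT01, 0.05, -0.00009 and 0.11 in AT1, and -0.01, 0.06 and 0.03 in AT10. Over all records the median log2 fold change of TCDCA against FCA ran from -0.07 in the decile of shortest span to 0.06 in decile 9. The 16 genes at an unadjusted p under 0.05 had a median span of 41110 bases, the other 28 of 22062 bases, and all records of 25185 bases. The Spearman correlation of span with this fold change was 0.38 over the 44 genes and 0.23 over all records. With the trend on span removed in every library, the median of the 44 in TCDCA against FCA was 0.14 in place of 0.10. In that comparison 16 genes were again higher at an unadjusted p under 0.05 (limma), against 4.88% of all records. At 1 µM the count fell from 16 to 11 (25.0%, against 4.13% of all records). It was 13 in place of 14 at 10 µM and again 4 at 0.1 µM, against 7.56% and 2.7% of all records.

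**Figure D5:**
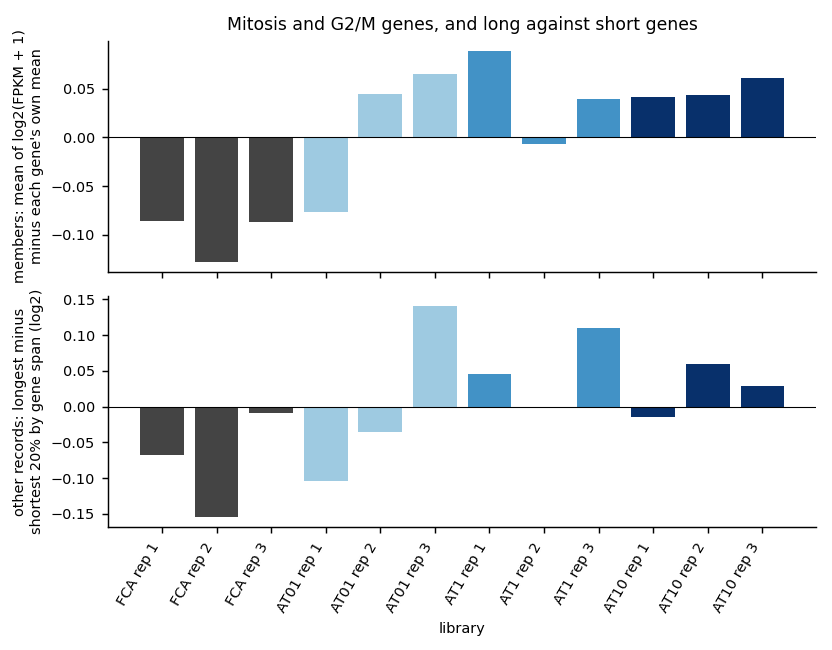
Top, mean level of the 44 genes in each of the 12 libraries (log2 scale, relative to the mean of each gene). Bottom, mean level of the longest minus the shortest 20% of other records by gene span (log2 scale). FCA replicate 2 is lowest in both, and AT01 replicate 1 is negative in both.

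Within the list the genes did not move as 1 block. Over the 12 libraries the median Pearson correlation of the 946 pairs was 0.08 (0.05 after removal of group means), against 0.007 for all pairs of records tested. These correlations share the 12 libraries and are given as a description. Most like Mki67 were Cenpe (r = 0.86), Top2a (r = 0.84), Nuf2 (r = 0.80), Cenpf (r = 0.79) and Ect2 (r = 0.78), and most unlike it were Kif18b (r = -0.70), Cdca8 (r = -0.68) and Aurka (r = -0.57). These values include the difference between groups. Within groups the first 5 were at 0.63, 0.57, 0.53, 0.40 and 0.37, with Dlgap5 at 0.61, and the last 3 at -0.81, -0.64 and -0.58. Spread over the 12 libraries was widest in Smc4, with a highest value 3.38 times the lowest, and narrowest in Prc1, the microtubule bundler of the central spindle, at 1.17 times.

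Other genes of the cell cycle were read from 3 further lists. Of 56 tested G2/M genes outside the 44, 40 were higher with TCDCA (71.4%, against 50.7% of all records), with a median of 0.10. At an unadjusted p under 0.05, 9 were higher (16.1%, against 5.86% of all records) and 1 lower (against 6.15%), and none had an adjusted p under 0.05 (limma). Aspm, a spindle-pole protein, was at 1.72, 1.63 and 2.19 FPKM in FCA and at 2.24 to 2.7 FPKM (median 2.43) in TCDCA, with no overlap and a log2 fold change of 0.28. Arhgap11a and Kif20b were higher by 0.32 and 0.49. Foxm1 and Mybl2, the activators of the G2/M genes, were at -0.11 (SE 0.10) and -0.10 (SE 0.10), with adjusted p-values of 0.690 and 0.688. Foxm1 measured 1.99, 1.92 and 1.86 FPKM in the FCA libraries, 1.51, 1.96 and 2.4 at 0.1 µM, 1.67, 1.74 and 1.4 at 1 µM and 1.5, 1.95 and 1.43 at 10 µM. Mybl2 measured 10.18, 10.71 and 10.68 FPKM in the FCA libraries, 10.82, 9.58 and 8.07 at 0.1 µM, 8.53, 8.86 and 9.05 at 1 µM and 10.97, 10.79 and 11.4 at 10 µM. In both genes the 3 AT1 libraries lay below every FCA library, while AT10 overlapped FCA for Foxm1 and lay above it for Mybl2. In AT10 against FCA, 1 gene of this list fell at an adjusted p under 0.05 (0.0167, limma), Fam83d, a spindle protein, which measured 4.64, 4.2 and 4.52 FPKM in the FCA libraries, 0.99, 4.45 and 0.66 at 0.1 µM, 4.48, 0.91 and 4.55 at 1 µM and 0.99, 0.94 and 0.59 at 10 µM. Fam83d stood at 2 separate levels, 4.2 to 4.64 and 0.59 to 0.99 FPKM, within AT1 and AT01 as well. Its log2 fold change at 10 µM was -1.57 (SE 0.11), and Fam83d is named after its values were seen.

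Of 34 tested genes for transcriptional control of the cell cycle, 21 were higher (61.8%, against 50.7% of all records), with a median of 0.05. The 3 at an unadjusted p under 0.05 (8.82%, against 5.86% of all records called higher) were Rbl2 at 0.24, Ccnd2 at 0.14 and Tfdp2 at 0.31. Cdkn1a (p21), the CDK inhibitor, measured 20.66, 23.15 and 17.97 FPKM in the FCA libraries, 18.98, 19.88 and 15.52 at 0.1 µM, 16.86, 19.47 and 17.87 at 1 µM and 19.51, 17.4 and 18.6 at 10 µM. Its log2 fold change was -0.16 (SE 0.09, adjusted p = 0.465). Ccnd1, cyclin D1, was at -0.28 (SE 0.38, adjusted p = 0.785), with 30.5 FPKM in AT1 replicate 3 and 126.5 to 140.3 FPKM in the other 11 libraries. Of 40 genes of DNA replication and S phase, 28 were higher (70.0%, against 50.7% of all records), with a median of 0.05. Only 2 were at an unadjusted p under 0.05, Pola1 at 0.31 and Pcna at 0.20, a share of 5.0% that is no more than the 5.86% of all records called higher. The third by p, Gmnn (geminin, which blocks relicensing of origins), was at 0.16. None of these genes passed an adjusted p under 0.05 in TCDCA against FCA. By dose, 32 of the 40 replication genes were higher at 10 µM (80.0%, against 48.2% of all records), with a median of 0.08. Of them 7 were at an unadjusted p under 0.05 (limma, 17.5%, against 7.54% of all records called higher). The same list had 19 genes higher at 1 µM and 24 at 0.1 µM. In each, 1 was called higher (2.5%), against 5.56% and 2.57% of all records.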

How the data were processed

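Poly(A) RNA of 12 FLS libraries was sequenced. The authors aligned reads with HISAT2, assembled transcripts with StringTie and deposited FPKM for each gene record, with no scaling between libraries stated. The genome build is not given in the sources used here.

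Groups were taken from the labels. From the deposited FPKM, log2(FPKM + 1) was computed for the 11611 records whose mean reached 1 FPKM. In R 4.3.3, limma 3.58.1 (lmFit, eBayes with trend) tested 2 groups at a time, with Benjamini-Hochberg adjustment over all records. A moderated F test compared the 4 groups. Permutation tests were exact and two-sided. Python 3.11.15 with pandas 2.3.3, NumPy 2.4.6, SciPy 1.17.1 and Matplotlib 3.10.9 served for the rest. The limma code was tested on simulated data.

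The genes and lists were chosen with earlier results of these data known. Values in every library are given for Mki67, Top2a, Ccnb1, Cdk1, Aurkb, Plk1 and Birc5, for the 3 genes of smallest p in each comparison with FCA, for the 2 highest and 2 lowest in mean level, and from each further list for the 3 of smallest p, in part by fold change only, with Foxm1, Mybl2, Cdkn1a and Ccnd1. Alternatives were a replicate block, summing the FPKM of records of 1 name, scaling by the median of ratios, an F test without moderation, 1 fit over all 12 libraries, a filter at 10 FPKM, no filter, a pseudocount of 0.1 and each library left out in turn. Removal of the trend on gene span, and leaving out FCA replicate 2 and AT01 replicate 1 together, were chosen after seeing the data. None of the 44 genes, Cenpa included, stood at 2 levels by the rule used, so the alternative without such genes changed nothing. That rule asked for a gap of at least 1 between sorted log2(FPKM + 1) values, wider than the range of either level.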

Additional observations from a re-analysis of the deposited data

How the results depend on the processing

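No read counts of single genes were at hand, so the precision of low values such as Kif15 and Cenpf is unknown. None of the 44 genes, where tested, had an adjusted p under 0.05 (limma) in any of the comparisons under the alternatives run, and the lowest adjusted p was 0.0984, in TCDCA against FCA without AT01 replicate 1. The fold changes of the genes of smallest p kept their sign under each alternative in which they were tested, which at 10 FPKM left only Top2a, Nuf2 and Tpx2 in TCDCA and Smc4 in AT10 against FCA, and Ccnb1 in AT01. The cause of the changes below was not tested.

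With a mean of at least 10 FPKM, 18 of the genes were left, which by itself lowers a count, and 3 reached an unadjusted p under 0.05 in TCDCA against FCA, 2 in AT10, 2 in AT1 and 2 in AT01 against FCA and 1 over the 4 groups, while the median of AT10 against AT1 was -0.025. The share called higher also fell. It was 16.7% in TCDCA (36.4% of the 44), against 4.79% of all records kept. In AT10 it was 11.1% (31.8% of the 44), against 6.3%. In AT1 it was 11.1% (36.4% of the 44), against 5.27%, and in AT01 5.56% (9.09% of the 44), against 2.04%. In 1 fit over all 12 libraries the count for AT01 against FCA was 8, where 3.62% of all records were called higher. For 10 against 1 µM it was 2 and for 10 against 0.1 µM it was 3. With the span trend removed, the median of AT10 against FCA was 0.094 and the count for AT1 against FCA was 11. The counts between doses were then 1 for 10 against 1 µM, 2 for 10 against 0.1 µM and 1 for 1 against 0.1 µM. AT10 against AT1 had a count of 1 with no filter and with an F test without moderation, and AT1 against AT01 a count of 1 with median-of-ratios scaling. Without FCA replicate 2 and AT01 replicate 1 together the median of AT01 against FCA was 0.16.

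With each library left out in turn, the counts ranged from 8 to 16 in TCDCA, 11 to 17 in AT10, 7 to 19 in AT1 and 0 to 12 in AT01 against FCA, from 0 to 2 for 10 against 1 µM, 0 to 3 for 10 against 0.1 µM and 0 to 2 for 1 against 0.1 µM, and from 4 to 13 over the 4 groups. The share of all records called higher ran from 2.96% to 8.81% in TCDCA and from 5.44% to 8.42% in AT10 against FCA. In AT1 it ran from 3.18% to 6.87% and in AT01 from 1.97% to 3.59%. Over the 4 groups, 6.17% to 11.1% of all records reached an unadjusted p under 0.05. The medians of the 44 ranged from 0.0959 to 0.154, 0.0649 to 0.0977, 0.118 to 0.165 and 0.0945 to 0.170 in TCDCA, AT10, AT1 and AT01 against FCA, and from -0.0176 to 0.0378 for 10 against 1 µM.

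Libraries of the same replicate number were not alike. Correlations of same-numbered deviations ran from -0.11 to 0.09, none of 18 was over 0.1, and 3 of 12 libraries correlated best with their own number. With 3 libraries per group, these values cannot settle whether the numbers mark paired sets. With the replicate block, the counts were 15, 13, 15 and 4 in TCDCA, AT10, AT1 and AT01 against FCA, 1 for each of the 3 comparisons between doses and 10 over the 4 groups. In the comparisons with FCA, 6.24%, 7.09%, 5.12% and 2.33% of all records were then called higher, in the same order.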
